A study of Mus musculus with 4 samples.

Results

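The 8 genes described here (Aldh1a3, Neurog3, Sox9, Fev, Gast, Cck, Serpina7 and Cd81) are markers of pancreatic progenitors or of β-cells that have lost maturity. They were found by symbol in the deposited count table, which lists 23420 genes, and all 8 were among the 14649 genes with enough counts to be tested. The table holds RNA-seq of FACS-sorted mouse β-cells from the pancreas, with 2 libraries of genotype Bmal1KO and 2 of genotype Bmal1+/-. Both groups carried DTA, the gene of the diphtheria toxin A fragment, which kills the cells that make it, and both were given doxycycline for 10 days to ablate β-cells. The design text calls the sorted cells residual; an unablated or Bmal1 wild-type group was not analysed here. The sources used here do not give the promoters that drive DTA and any Cre, the age and sex of the mice or the number of mice per library. The p-values therefore measure the spread between these 4 samples only, and that spread may be technical.

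A mature β-cell makes insulin and keeps silent many genes that its precursors used. In the embryo, SOX9 marks the multipotent pancreatic progenitors and later the ducts, and a short pulse of NEUROG3 commits some of these cells to an endocrine fate, with FEV expressed as they leave the NEUROG3 state. Under metabolic stress, β-cells can lower their insulin programme and turn on genes such as Aldh1a3, a state called dedifferentiation. Gastrin and cholecystokinin are gut hormones that islet cells can also make, gastrin in the fetal pancreas and in diabetic islets.

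The KO-labelled libraries had 32819576 and 31056116 counts and those labelled heterozygous 38020488 and 34776920. Levels are CPM, counts scaled to library size, after TMM scaling, which corrects for composition, and a count of 3 corresponds to 0.0775 to 0.0937 CPM. The β-cell label fits the hormones: Ins2 took 15.5% to 19.5% of the counts of each library, while Gcg, the α-cell hormone gene, was at 1283 to 3303 CPM against 151722 to 194549.9 CPM for Ins2. The targeted gene, Arntl (another symbol of Bmal1), was at 75.8 and 65.6 CPM under the KO label and at 23.0 and 15.0 CPM under the heterozygous label, higher under the KO label (edgeR adjusted p = 0.0175, or 0.0724 without heterozygous replicate 2). Gene counts do not show which exons were read, so the groups are called by their labels and every direction is that of the KO label relative to the heterozygous label. KO replicate 1 stood apart in sex-linked RNA, with 8.68 CPM of Xist against 38.8 to 72.3 CPM in the other libraries and 89.1 CPM of Ddx3y against 12.1 to 23.8 CPM. The labels also lay apart, though neither gene passed. Both KO libraries were below both heterozygous ones for Xist (log2 fold change -1.56, edgeR adjusted p = 0.233). For Ddx3y both were above (1.79, edgeR adjusted p = 0.176). Every library held RNA of both genes, and the mix of sexes was not tested.

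Upstream sequence was available for 6 of the 8 genes, as the 250 bases before a RefSeq transcription start on GRCm38.p6. A pair of them is shown, for the gene that passed the test (Serpina7) and for the only gene that was lower under the KO label (Cck). Capitals mark CACGTG, the E-box letters that the BMAL1 and CLOCK pair binds, searched on both strands.

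Cck, chr9:121495695-121495944, minus strand: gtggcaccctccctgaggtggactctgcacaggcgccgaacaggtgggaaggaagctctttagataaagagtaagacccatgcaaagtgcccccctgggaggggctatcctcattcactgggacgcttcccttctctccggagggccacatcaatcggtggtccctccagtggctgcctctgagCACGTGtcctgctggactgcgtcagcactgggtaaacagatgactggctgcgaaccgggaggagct
Serpina7, chrX:139085237-139085486, minus strand: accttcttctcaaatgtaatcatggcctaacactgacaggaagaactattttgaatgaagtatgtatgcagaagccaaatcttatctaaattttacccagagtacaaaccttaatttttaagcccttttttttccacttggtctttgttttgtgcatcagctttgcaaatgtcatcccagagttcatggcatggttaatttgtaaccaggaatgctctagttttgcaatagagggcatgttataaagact

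The Cck window held 1 CACGTG, which begins 66 bases before the start, and it was the only window of these genes that did; CACGTG was present in 6.02% of all 32851 windows of this length. Neither TTATGTAA, the D-box letters of the PAR bZIP factors and NFIL3, nor AGGTCA, a core site of ROR and REV-ERB receptors, was found in a window of these genes (0.819% and 14.0% of all windows held them); none of these letters overlap. The Serpina7 window was poor in G and C, at 36.0% against a median of 52.4% over all windows, and that of Neurog3 rich, at 71.2%. A match in these letters is a description of the sequence and shows no binding, and a window without them says nothing of sites elsewhere.

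Of the 8 genes, Serpina7 rose under the KO label and 7 did not pass. The test was edgeR's quasi-likelihood F test, with p adjusted by Benjamini and Hochberg over all genes tested, of which 1.20% passed as higher and 1.34% as lower (2.54% in all). No gene of the 8 passed as lower by edgeR. For 1 (Cck) the unadjusted p was under 0.05 in that direction, beside 7.75% of all genes. Cck passed by DESeq2 and by limma-trend but not by limma-voom. An unadjusted p under 0.05 with a higher level was reached by 4 (Aldh1a3, Neurog3, Sox9 and Serpina7), beside 9.12% of all genes (16.9% in either direction). For 7 genes both libraries labelled KO lay above both labelled heterozygous, and for Cck both lay below. Groups without overlap occurred in 25.3% of all genes as higher and in 23.8% as lower (49.0% in all). The median log2 fold change of the 8 was 0.76, beside 0.02 over all genes. The genes were chosen with earlier results of these data known, so neither count is independent evidence of a direction. In bulk RNA, fewer cells of a type and less RNA per cell cannot be told apart.

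**Figure D1:**
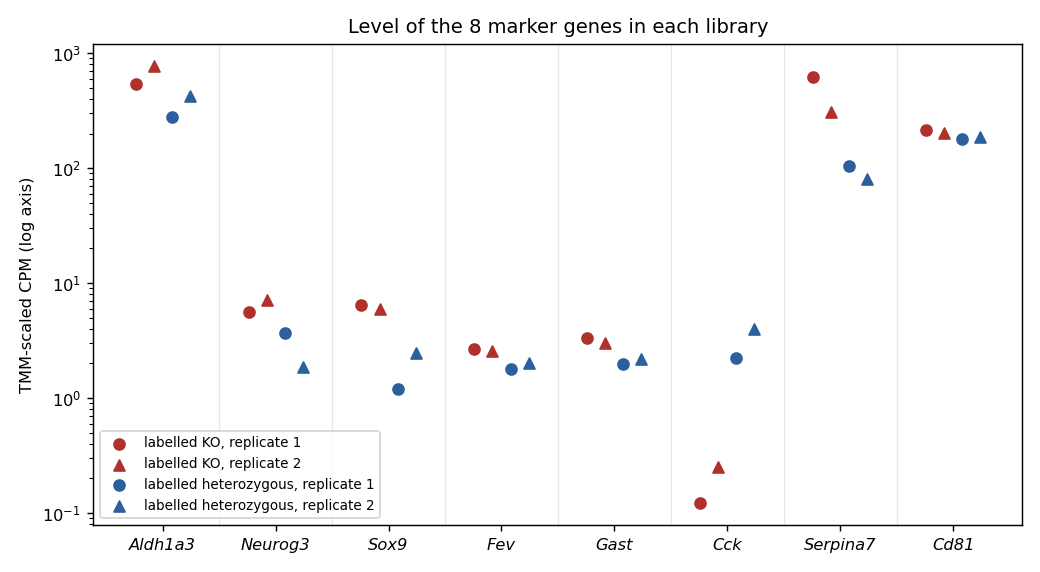
TMM-scaled CPM (log axis) of the 8 genes in each of the 4 libraries, red for the KO label and blue for the heterozygous label, circles for replicate 1 and triangles for replicate 2. Both red points lie above both blue points for 7 genes, and below them for Cck alone, where they sit at 0.122 and 0.250 CPM.

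Compared per length of exon, the 8 genes fell into an abundant and a scarce set. In the libraries labelled heterozygous the order was Aldh1a3 (76.0 CPM per kilobase), Cd81 (63.5), Serpina7 (37.9), Gast (4.53), Cck (2.37), Neurog3 (1.65), Fev (1.18) and Sox9 (0.447). There Aldh1a3 overlapped Cd81, Cck overlapped Neurog3 and Neurog3 overlapped Fev between libraries, and the other neighbours did not overlap. In the libraries labelled KO, Serpina7 was first at 190.2 CPM per kilobase and overlapped Aldh1a3 at 143, followed without overlap by Cd81 (72.2), Gast (6.87), Neurog3 (3.78), Fev (1.63), Sox9 (1.50) and Cck (0.142). Serpina7 moved from the third place to the first and Cck from the fifth to the last. Percentiles of mean level per length were taken over the 13710 tested genes with a known exon length (93.6% of those tested). Aldh1a3, Serpina7 and Cd81 stood at the 98.7, 98.8 and 97.1 percentiles, and the other 5 between 23.6 and 56.4. Lengths are merged exons of GENCODE M21, which need not be the authors' gene models.

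Aldh1a3 encodes a retinaldehyde dehydrogenase that makes retinoic acid, and it is a widely used marker of failing and dedifferentiated β-cells. Its gene lies on chromosome 7 (66390890 to 66427517, GRCm38, minus strand). It was at 544 and 776 CPM under the KO label and at 279 and 422 CPM under the heterozygous label. Every library held it in abundance, KO replicate 2 the most and heterozygous replicate 1 the least. edgeR gave a log2 fold change of 0.91 (SE 0.25, 95% interval 0.33 to 1.49, edgeR adjusted p = 0.120), which did not pass. The closest pair of libraries across the groups differed 1.29-fold, less than the 1.43-fold and 1.51-fold between replicates of a group. It passed by DESeq2 (adjusted p = 0.00404), with no filter on low counts (edgeR adjusted p = 0.0268) and without KO replicate 1 (edgeR adjusted p = 0.0456).

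Of the other genes of retinoic acid synthesis, binding, breakdown and reception, 9 of 18 could be tested. Dhrs3, which encodes a reductase that turns retinaldehyde back to retinol, rose and 8 did not pass; the median was 0.24. Dhrs3 was at 72.5 and 26.8 CPM under the KO label and at 3.23 and 4.21 CPM under the heterozygous label (log2 fold change 3.74 with SE 0.48; edgeR adjusted p = 0.0175); the fold change was 2.83 on the log2 scale without KO replicate 1 and 4.28 without KO replicate 2. All of the higher values were under the KO label, with KO replicate 1 far above KO replicate 2. It did not pass by limma-voom (adjusted p = 0.0504) or without heterozygous replicate 2 (edgeR adjusted p = 0.0666). The related dehydrogenases were scarce: counts of Aldh1a1 were 75 and 61 against 2 and 15, and those of Aldh1a2 40 and 97 against 10 and 3, neither past the threshold (edgeR adjusted p = 0.219 and 0.132). Per length, Aldh1a3 made up 99.0% to 99.9% of the summed level of these 3 enzymes in each library. The retinoic acid receptor genes Rara and Rarg, at 3.52 ± 0.237 against 2.97 ± 0.652 and 4.79 ± 0.0202 against 8.98 ± 2.34 CPM (SD, n = 2 each), did not pass.

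Neurog3 encodes the basic helix-loop-helix factor that starts endocrine differentiation (chromosome 10, 62133090 to 62134763, plus strand). It was at 5.57 and 7.09 CPM under the KO label and at 3.67 and 1.85 CPM under the heterozygous label, from 183, 227, 142 and 61 counts. Heterozygous replicate 2 was the lowest, and the replicates of that label differed 1.99-fold, beyond counting error (exact binomial p = 4.00e-06). This was a log2 fold change of 1.20 (SE 0.48, 95% interval 0.06 to 2.33, edgeR adjusted p = 0.272), which did not pass. Without heterozygous replicate 2 it was 0.77, and without heterozygous replicate 1 it was 1.77. An exon of Neurog3 overlaps Fam241b on the other strand, listed as 2010107G23Rik at 42.0, 42.5, 34.2 and 32.9 CPM, and the library kit does not mark strand, so the Neurog3 level is uncertain to that extent.

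Genes that act with or after NEUROG3 stayed short of the threshold. Of 17 tested, 0 passed by edgeR, 3 had an unadjusted p under 0.05, all higher, and 3 passed by DESeq2, 0 by limma-voom and 1 by limma-trend; the median was 0.10. Cdkn1a, a cell cycle inhibitor gene, was at 105 and 91.4 against 60.1 and 43.1 CPM (log2 fold change 0.93, edgeR adjusted p = 0.0664). Neurod1, a direct target of NEUROG3 that mature β-cells keep, had a log2 fold change of 0.10, and Pax4 had 0 counts in all 4 libraries, under the floor of 3 counts.

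Notch signalling holds progenitors back from NEUROG3 expression through HES1. Of 20 Notch pathway genes tested, 0 passed by edgeR, 5 had an unadjusted p under 0.05 (4 higher and 1 lower), 2 passed by DESeq2 and 0 by limma-voom or limma-trend; the median was 0.42. Hes1 was at 25.7 and 22.0 against 9.37 and 11.3 CPM (log2 fold change 1.20, edgeR adjusted p = 0.0555, or 0.0385 when scaled by library size alone; 0.00119 by DESeq2). The ligand gene Jag2 was at 38.4 and 36.6 against 21.9 and 22.0 CPM (0.77, edgeR adjusted p = 0.0834).

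Sox9, the progenitor and duct transcription factor gene, lies on chromosome 11 (112782224 to 112787760, plus strand). It was at 6.42 and 6.00 CPM under the KO label and at 1.21 and 2.48 CPM under the heterozygous label. The libraries labelled KO differed by no more than counting error (exact binomial p = 0.517). Those labelled heterozygous differed 2.05-fold, beyond counting error (exact binomial p = 8.73e-05). The Sox9 level of the lower KO library was 2.42-fold above that of the higher heterozygous one. Its log2 fold change was 1.75 (SE 0.51, 95% interval 0.56 to 2.94, edgeR adjusted p = 0.143), and it passed by DESeq2 alone among the alternatives (adjusted p = 0.0383).

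Sox9 is also a duct gene, so other duct markers were compared. Of 14 other duct markers tested, 0 passed by edgeR, 4 had an unadjusted p under 0.05 (3 higher and 1 lower), and DESeq2, limma-voom and limma-trend each passed 1, as lower; the median was 0.46. Krt19, a defining duct keratin gene, was at 8.07 and 1.53 against 2.79 and 2.36 CPM, with overlapping groups, and Cftr was at 0 in 3 of 4 libraries. Krt7 was at 368 and 397 against 567 and 663 CPM (log2 fold change -0.68, edgeR adjusted p = 0.0637). Summed over the list with Sox9, duct markers came to 1104 and 1040.1 CPM under the KO label and 1300.3 and 1382 CPM under the heterozygous label. Krt7, Krt18, Krt8 and Spp1 made up most of that sum, and 9 of the 14 other duct markers tested had a higher level under the KO label. The part of duct RNA in the Sox9 level was not tested.

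Other multipotent progenitor genes and genes of SOX9 programmes did not pass. Of 14 multipotent progenitor genes tested besides Sox9, 0 passed by edgeR, 3 had an unadjusted p under 0.05 and 0 passed by DESeq2, limma-voom or limma-trend; the median was 0.47. Yap1 had 14 and 27 counts against 2 and 1, and Cyr61, a YAP target, was at 16.2 and 7.46 against 5.29 and 1.33 CPM (edgeR adjusted p = 0.179 and 0.231). Nanog and Pou5f1, genes of pluripotency, had 0 counts in every library. Of 9 genes of SOX9 programmes, 0 passed by edgeR or the other 3 tools, 2 had an unadjusted p under 0.05 and the median was 0.76; Col11a2 was at 27.3 and 31.2 against 19.7 and 14.8 CPM, and Sox5 at 2.07 and 2.78 against 0.439 and 0.605 CPM.

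Fev encodes PET1, an ETS factor of late endocrine progenitors and of serotonin neurons (chromosome 1, 74881509 to 74885419, minus strand). It was at 2.68 and 2.59 CPM under the KO label and at 1.78 and 2.03 CPM under the heterozygous label, from 88, 83, 69 and 67 counts. Replicates differed by no more than counting error in either group (exact binomial p = 0.879 and 0.492). edgeR gave a log2 fold change of 0.47 (with SE 0.54; edgeR adjusted p = 0.733), and its 95% interval, -0.81 to 1.75, leaves room for a lower or a higher level.

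Among 12 other genes of the serotonin programme tested, 2 rose (among them Htr1d), Maob fell and 9 did not pass, with a median of 0.07. Htr1d, a serotonin receptor gene, had 63 and 40 counts against 0 and 0, at least 38.0-fold higher against a floor of 3 counts over the group (edgeR adjusted p = 0.0481; 0.113 without KO replicate 1, 0.0548 without KO replicate 2 and 0.0584 by limma-trend). Htr1d entered the test through the KO label alone, since a gene at 0 counts in all libraries would have been left out. Maob, which encodes an enzyme that breaks down amines, fell from 169 ± 2.27 to 84.7 ± 15.4 CPM (SD, n = 2 each, edgeR adjusted p = 0.0323). The genes of the enzymes that start serotonin synthesis were scarce: Tph1 had 0 counts in 3 libraries and 16 in heterozygous replicate 2, and Tph2 was at 2.69 ± 0.715 against 3.51 ± 0.296 CPM (edgeR adjusted p = 0.762).

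Gast encodes gastrin (chromosome 11, 100334407 to 100336996, plus strand). It was at 3.32 and 3.00 CPM under the KO label and at 1.99 and 2.18 CPM under the heterozygous label, from 109, 96, 77 and 72 counts. As for Fev, replicates differed by no more than counting error (exact binomial p = 0.485 and 0.622) and the groups lay close, 1.38-fold apart at their nearest. This was a log2 fold change of 0.60 (SE 0.51, 95% interval -0.60 to 1.80, edgeR adjusted p = 0.624), which did not pass.

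Cck encodes cholecystokinin (chromosome 9, 121489824 to 121495694, minus strand), and it was the gene that lay furthest apart between the labels. It had 4 and 8 counts under the KO label and 86 and 131 under the heterozygous one, or 0.122 and 0.250 against 2.22 and 3.97 CPM. The libraries labelled KO were close to the floor of 3 counts, and the nearest libraries of the groups were 8.89-fold apart. Cck entered the test through the heterozygous label alone, since a gene as low as the KO label in all libraries would have been left out. Its log2 fold change was -4.03 (SE 0.82, 95% interval -5.97 to -2.10, edgeR adjusted p = 0.0575), which missed the threshold. Pooled over libraries, the heterozygous label held 16.3 times the Cck of the KO label, and the exact binomial 95% interval, which covers counting error only, ran from 9.17 to 32.1. The call was made by DESeq2 (adjusted p = 0.000476), by limma-trend (adjusted p = 0.0373), with no filter on low counts (edgeR adjusted p = 0.0178) and without KO replicate 2 (edgeR adjusted p = 0.0417), and without heterozygous replicate 2 the edgeR adjusted p was 0.519. Of other gut peptide genes, Gip had 0, 1, 0 and 0 counts, Nts 0, 0, 0 and 9, Tac1 0, 32, 3 and 0 and Vip 0, 205, 0 and 0 in KO replicates 1 and 2 and heterozygous replicates 1 and 2, while Pyy, which islets also make, was at 231 to 615 CPM.

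Of 12 other genes of gastrin and cholecystokinin reception and processing tested, Cpd rose, Pcsk1 fell and 10 did not pass, with a median of -0.04. Cpd, a carboxypeptidase gene, was at 137 and 125 against 58.1 and 69.7 CPM (log2 fold change 1.04 with SE 0.16; edgeR adjusted p = 0.0247). Pcsk1, the prohormone convertase gene that also serves insulin, was at 429 and 532 against 817 and 912 CPM (-0.85 with SE 0.16; edgeR adjusted p = 0.0449; 0.0545 when scaled by library size alone). Cckar, the main cholecystokinin receptor gene, had 83 and 3 counts against 24 and 5, with KO replicate 1 the highest, and Cckbr had 10 and 1 against 0 and 0.

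**Figure D2:**
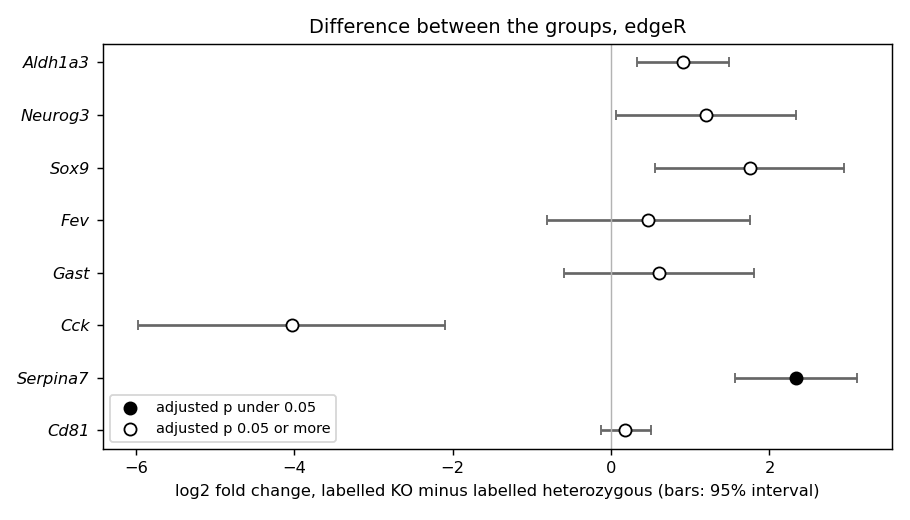
edgeR log2 fold change (labelled KO minus labelled heterozygous) of each gene with its 95% interval, filled where the adjusted p is under 0.05. Serpina7 at 2.33 is the only filled point, Cck at -4.03 the only one below 0, and the intervals of Fev, Gast and Cd81 include 0.

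Serpina7 encodes thyroxine-binding globulin, a carrier of thyroid hormone in blood that the liver normally secretes (chromosome X, 139079257 to 139085236, minus strand). It was at 622 and 309 CPM under the KO label and at 105 and 80.6 CPM under the heterozygous label, from 20437, 9901, 4056 and 2664 counts. KO replicate 1 was 2.01-fold above KO replicate 2, and the nearest libraries of the groups were 2.95-fold apart. edgeR gave a log2 fold change of 2.33 (SE 0.33, 95% interval 1.56 to 3.10, edgeR adjusted p = 0.0197), a 5.02-fold rise. Its rank among all tested genes was 130 by p and 537 by size of fold change. The call was lost without heterozygous replicate 2 (log2 fold change 2.14, edgeR adjusted p = 0.0925), and the fold change was smallest, at 1.71, without KO replicate 1. Serpina7 is X-linked, and Xist in the same libraries was at 8.68, 38.8, 72.3 and 67.5 CPM; its part in the result was not tested.

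**Figure D3:**
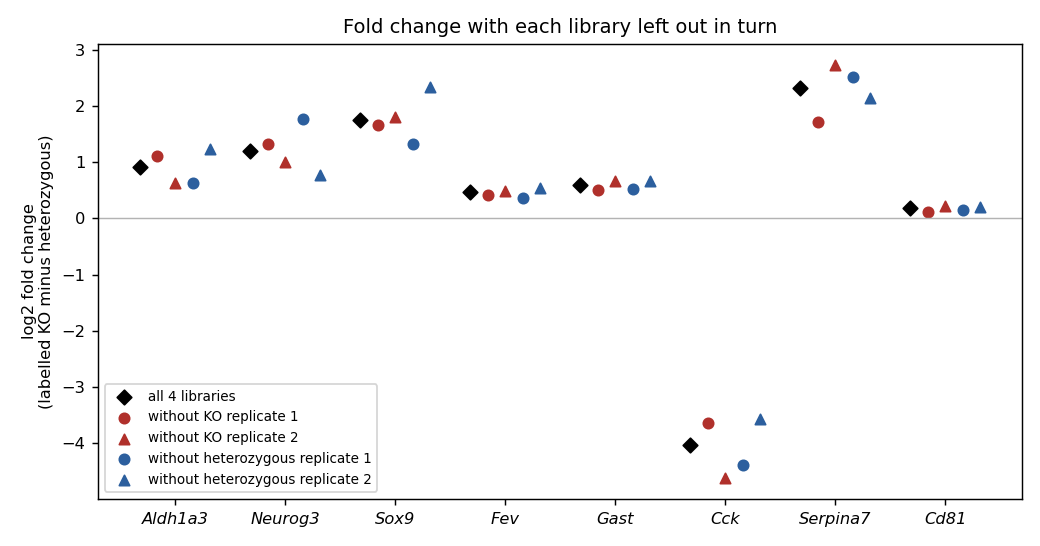
edgeR log2 fold change of each gene with all 4 libraries (black) and with each library left out in turn (red for a library labelled KO, blue for one labelled heterozygous). Each gene stayed on its side of 0, and Serpina7 ranged from 1.71 to 2.74, Neurog3 from 0.77 to 1.77 and Cck from -4.63 to -3.57.

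The other clade A serpins were nearly silent. Of 27 genes of clade A serpins and of thyroid hormone carriage and response, 11 had 0 counts in every library and 9 besides Serpina7 were tested. None of these 9 passed by edgeR, 3 had an unadjusted p under 0.05, 2 passed by DESeq2 and 0 by limma-voom or limma-trend; the median was -0.08. Serpina10, which encodes an inhibitor of clotting, was the other abundant serpin, at 70.2 ± 6.59 against 74.2 ± 3.35 CPM (SD, n = 2 each; log2 fold change -0.08). The thyroid hormone receptor gene Thra was at 12.8 and 12.2 against 5.76 and 4.48 CPM (log2 fold change 1.29, edgeR adjusted p = 0.0930).

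Cd81 encodes a tetraspanin, a membrane protein that organises other surface proteins, and it marks immature and stressed β-cells (chromosome 7, 143052739 to 143067934, plus strand). It was at 215 and 201 CPM under the KO label and at 179.7 and 186 CPM under the heterozygous label. All 4 libraries were close together. This was a log2 fold change of 0.18 (SE 0.13, 95% interval -0.13 to 0.50, edgeR adjusted p = 0.556), so a 2-fold change (1 on the log2 scale) lay outside the interval in either direction. R74862, whose exons overlap Cd81 on the other strand, was at 1.96 to 3.06 CPM.

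Of 27 other tetraspanins and CD81 partners tested, Tspan13 fell, 0 rose and 26 did not pass, with a median of 0.55. Tspan13 was at 251 and 255 against 413 and 428 CPM (log2 fold change -0.73 with SE 0.13; edgeR adjusted p = 0.0388; 0.0567 when scaled by library size alone). By unadjusted p under 0.05, 7 were higher and 2 lower, and of the higher ones DESeq2 passed 3 and limma-voom and limma-trend 0.

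Other genes described in immature or dedifferentiated β-cells were measured beside these markers. Of 22 tested, 2 rose (among them Pdgfra), Gc fell and 19 did not pass, with a median of 0.78. Gc, which encodes the vitamin D-binding protein, was at 229.7 and 191 against 392 and 405 CPM (log2 fold change -0.92 with SE 0.15; edgeR adjusted p = 0.0286). Pdgfra, a receptor gene also used here as a stromal marker, had 37 and 170 counts against 0 and 0, at least 76.3-fold higher against a floor of 3 counts over the group (edgeR adjusted p = 0.0464; 0.107 without KO replicate 2, 0.0868 by limma-voom and 0.0966 by limma-trend).

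Counted once each and without the 8 markers, 146 genes of these pathways were tested, with a median of 0.31. Of these, 6 rose and 4 fell, 6.85% beside 2.54% of all genes in either direction. The lists were chosen with earlier results of these data known, so this share is not independent evidence about the pathways. Htr1d and Pdgfra, among the 6, entered the test through the KO label alone, with 0 counts in both heterozygous libraries. Scaled by library size alone, 8 rose and 2 fell. Without heterozygous replicate 2, 0 passed, and without heterozygous replicate 1, 3 rose (among them Dhrs3 and Txnip) and 0 fell.

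**Figure D4:**
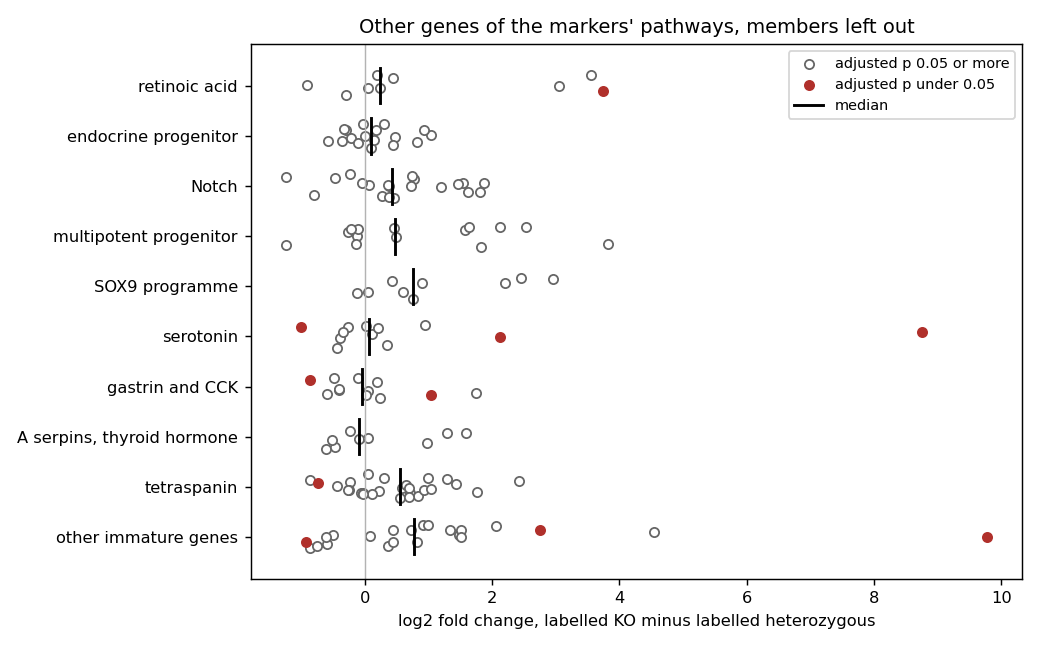
edgeR log2 fold change (labelled KO minus labelled heterozygous) of the tested genes in each pathway list without the 8 markers, red where the adjusted p is under 0.05, with a black bar at the list's median. Medians lie between -0.08 and 0.78; the red points furthest right, Htr1d and Pdgfra, had 0 counts in both heterozygous libraries, so their fitted values depend on the prior count.

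Markers of other cells differed between the same libraries. Of 17 stromal markers tested, 6 rose (Col6a1, Fn1 and Lum had the smallest p) and 11 did not pass, with a median of 2.82, and their summed level was 217 and 524 CPM under the KO label against 84.5 and 43.5 CPM. Of 17 immune markers, 2 rose (Cd14 and Fcer1g), the median was 1.29, and the sum was 512 and 1411 against 474 and 542 CPM, high in KO replicate 2 alone. Without heterozygous replicate 2, 1 stromal and 0 immune markers passed; without KO replicate 1, 13 and 11 did. Of 21 acinar markers 0 passed by edgeR and 8 had an unadjusted p under 0.05, 3 rose and 1 fell by DESeq2 and 0 passed by limma-voom or limma-trend, the median was 1.85 and 18 had a higher level under the KO label; without heterozygous replicate 1, 8 rose. The acinar sum was 489.8 and 354 against 367 and 328 CPM, of which Bhlha15 took 179 and 211 against 269 and 299.9 CPM, and without it, a choice made after seeing the values, 311 and 143 against 98.4 and 28.5 CPM; Cpa1 was at 16.3 and 2.78 against 3.07 and 0.182 CPM. All 7 endothelial markers tested had a higher mean level under the KO label, with a median of 1.15, though Kdr hardly differed (log2 fold change 0.06). Both KO libraries lay above both heterozygous ones for 4 of the 7, beside 25.3% of all genes. Of the endothelial markers, 0 passed by edgeR, limma-voom or limma-trend, 3 had an unadjusted p under 0.05 and 2 rose by DESeq2. Their sum was 50.1 and 26.2 against 18.5 and 14.2 CPM. The α-cell sum was 3082 and 4689 against 2850.2 and 3476 CPM. Of 9 α-cell markers tested 8 did not pass, 6 had a higher level under the KO label and 3 a lower one (Ttr, Slc7a2 and Loxl4, with log2 fold changes of -0.46, -0.66 and -0.78), and Irx2 rose (edgeR adjusted p = 0.0230; 0.0693 and 0.0911 without heterozygous replicate 1 and 2). The sum of PP-cell and ε-cell markers was 2352 and 4653 against 1642 and 1313 CPM, almost all of it Ppy and Pyy. Of 9 markers of Schwann cells and neurons Tubb3 rose, at 57.7 and 48.0 against 27.8 and 25.4 CPM (edgeR adjusted p = 0.0439; 0.0736 without KO replicate 1, 0.152 and 0.298 without heterozygous replicate 1 and 2). Of 24 β-cell genes 6 fell and 0 rose, with a median of -0.37; without heterozygous replicate 2, 0 fell, and without heterozygous replicate 1, 3 did. None of these lists had all of its markers at 0 in any library, and their part in the levels of the 8 genes was not tested. Between the KO-labelled libraries, Aldh1a3 and Neurog3 were higher in replicate 2, as were the stromal, immune, α-cell, δ-cell and PP-cell sums. Serpina7 was 2.01-fold and Cd81 1.07-fold higher in replicate 1, where the acinar, endothelial, duct, β-cell and neuron sums were also higher. Sox9, Gast, Fev and Cck differed between these 2 libraries by no more than counting error (exact binomial p = 0.517, 0.485, 0.879 and 0.261).

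**Figure D5:**
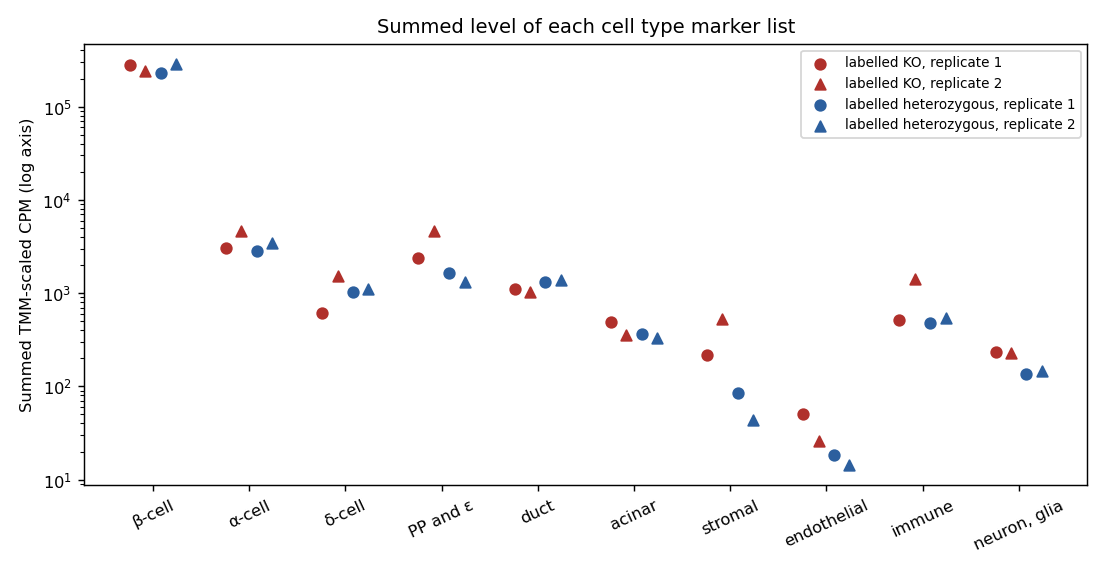
Summed TMM-scaled CPM (log axis) of each cell type marker list in each of the 4 libraries, red for the KO label and blue for the heterozygous label. Stromal sums are 217 and 524 CPM in red against 84.5 and 43.5 CPM in blue. Duct sums, mostly Krt7, Krt18, Krt8 and Spp1, lie within 1040.1 to 1382 CPM.

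The nearest tested protein-coding genes on either side of each marker were also compared. At an unadjusted p under 0.05, 1 of these 16 genes was higher and 5 lower, beside 9.12% and 7.75% of all genes. Of the 16, 0 passed by edgeR, limma-voom or limma-trend, and 1 was higher and 4 lower by DESeq2. Their log2 fold changes ran from -1.50 to 1.92. Trpm5, 1219 bases from Cd81 and itself a β-cell channel gene, was at 5.30 and 5.21 against 13.2 and 14.3 CPM (log2 fold change -1.39, edgeR adjusted p = 0.0625). Nearest to Cck, Trak1 and Vipr1 were also lower in level, with log2 fold changes of -0.56 and -0.85 that did not pass. Both neighbours likewise had the marker's direction for Neurog3, Gast and Serpina7. Both had the opposite direction for Sox9, Fev and Cd81, and those of Aldh1a3 were split. The extremes were Map2k6 beside Sox9 (-1.50) and 4930513O06Rik beside Serpina7 (1.92).

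The genes nearest in pattern were sought by the Euclidean distance between log2 CPM values over the 4 libraries, each centred on the gene's own mean, among genes with a mean of at least 10 CPM. Nearest to Serpina7 were Sorcs2, at 281, 139, 53.6 and 34.5 CPM in KO replicates 1 and 2 and heterozygous replicates 1 and 2 (distance 0.189), and Tmie (0.242). Nearest to Aldh1a3 were Arhgap6 (0.196) and Tshz3 (0.210), to Neurog3 Klf10 (0.212) and Itpr1 (0.241), and to Sox9 Oas2 (0.297) and Leprel2 (0.405). For Cck the nearest, Troap and Casc5, were at distances of 0.823 and 0.845. For Gast, Fev and Cd81, which had small fold changes, the nearest were Crip1 (0.0406), Gpt2 (0.0475) and Sdcbp (0.00401). This distance depends on the size of a gene's fold change, so it does not compare how common the patterns are. With 4 libraries such distances are a description.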

How the data were processed

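RNA of sorted β-cells was measured in 4 libraries, made with an RNeasy Plus Micro kit and a SMART-Seq v4 low-input kit, per the labels' protocols. STAR, edgeR and mm10 are listed, with no role, in the submitters' processing notes; what counted the reads, and on which annotation, the sources used here do not say. The authors deposited whole-number counts per gene symbol (all tests) and a scaled signal, counts times 1 constant per library, from which 100% of values gave whole reads (tolerance 0.01); edgeR on those reads called 372 genes, as on the counts. Counts were filtered with filterByExpr (minimum count 10, total 15), which kept 14649 genes, and tested with edgeR 4.0.16 (glmQLFit, glmQLFTest, TMM, group only, 2-sided) in R 4.3.3, at an adjusted p of 0.05. The SE is the fold change over the root of F. Residual degrees of freedom were 2 and prior ones 5.12. Members, lists and tests were chosen with earlier results of these data known. Named genes are the 8 members, Arntl, fixed hormone and cell markers and, per list, up to 3 that passed or else the 2 with the smallest p, plus the 2 nearest in pattern; others named (such as Pax4, Tph1, Trpm5) were chosen after seeing values. Some genes that the rule names are not reported here. Reads carry no molecular identifiers, so the exact binomial p-values and interval treat every read as independent and cover counting error only. The edgeR intervals also include the spread between libraries. The code was tested on simulated data. Alternatives were other scalings, filters, DESeq2 1.42.0, limma 3.58.1 (voom, and trend on the log2 of the deposited signal plus 1), a replicate block and each library left out. Replicates of a label differed by more than sampling noise (chi-square per degree of freedom 63.9 for KO, 42.9 for heterozygous), so none was counted as a copy.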

Additional observations from a re-analysis of the deposited data

How the results depend on the processing

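The 8 genes kept their direction under all 123 combinations of gene and alternative. Of these, 111 left the call as it was, 1 lost it and 11 gained it. The threshold of 0.1 used the main fit, and the reads recovered from the deposited signal repeated the counts. Neither of these alternatives could turn a direction, and the recovered reads could not change a call. The number of the 8 that passed, 1, was 3 with no filter on low counts, 4 by DESeq2, 2 by limma-trend on the deposited values, 2 at a threshold of 0.1, and 0 to 2 with a library left out. Over all genes, 372 passed, against 808 with no filter, 1181 by DESeq2, 728 at a threshold of 0.1, and 25 (without heterozygous replicate 2) to 826 (without KO replicate 2) with a library left out. Of the other pathway genes, 10 passed, against 19 with no filter, 27 by DESeq2, 19 at a threshold of 0.1, and 0 to 13 with a library left out. Fits that leave out a library assume that the lone sample varies like the other group. At a mean of 5 CPM only 3 of the 8 were tested.

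The replicate numbers in the titles are not said to mark shared animals or days, and deviations of same-numbered libraries correlated at -0.0196 across genes. With a replicate block 3 of the 8 passed (Serpina7, Aldh1a3 at an edgeR adjusted p of 0.0132 and Cck at 0.049), 591 genes in all and 14 pathway genes.

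Among genes named beside the 8, the sign turned for Sst (log2 fold change -0.04) to 0.02 with library sizes only and 0.0037 at a mean of 5 CPM, and for Ins2, Krt19 and Sst with a library left out (Ins2 -0.05 to 0.25, Krt19 -0.78 to 1.64, Sst -0.89 to 0.47). With 4 counts in the lowest library, the level of Cck under the KO label is limited by depth.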
